A study of Mus musculus with 6 samples.

Results

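The Hox genes encode homeodomain transcription factors that give cells along the body axis their position. The protein-coding rows of the deposited expression table with a symbol made of Hox, a cluster letter from a to d and a paralog number were taken, which gave 22 genes of the 2031 rows in the table and of the 39 Hox genes of the mouse. Of the genes known in each cluster, the table holds 8 of 11 in cluster a, 7 of 10 in cluster b, 5 of 9 in cluster c and 2 of 9 in cluster d. By paralog number it holds 7 of 12 genes with numbers 1 to 4, 8 of 11 with numbers 5 to 8 and 7 of 16 with numbers 9 to 13, with no gene of paralog group 12. The other 17 Hox genes are not analysed here.

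The RNA came from J1 cells, a single mouse embryonic stem cell line of strain 129S4/SvJae, after differentiation, and the labels name no transgene or other allele. Both groups were grown as embryoid bodies, cell aggregates formed in hanging drops over 3 days, under a protocol for heart muscle induction. NC cells grew in a conventional incubator and MF cells in a static magnetic field incubator, with 3 libraries each. The study asked which genes differ in expression between these culture conditions. How strong the field was, how long it acted and when cells were collected is not stated in the sources used.

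Mouse Hox genes sit in 4 clusters on separate chromosomes, and the genes of a cluster are transcribed from the same strand in the order of their paralog numbers. In the embryo, genes with low numbers are switched on early and reach far forward into the hindbrain, while genes with high numbers are switched on later and mark the trunk, the limb buds and the tail. Retinoic acid acts on genes of the low numbers, Cdx factors act on genes of the trunk, and Polycomb complexes keep the clusters silent in stem cells.

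The sequences before the gene starts are only a part of the DNA on which such regulators may act. Of these, 5 were chosen to set anterior, middle and posterior genes side by side. Each is the 250 bases before the RefSeq start on build GRCm38.p6, read 5′ to 3′ on the strand of the gene. Capitals mark AGGTCA, a part of a retinoic acid receptor site, TTTATG, a core site of Cdx factors, and GGGCGG, a site of Sp factors. Each was sought on either strand, and no match overlaps another. Hoxb4 (chr11:96318017-96318266, plus strand) and Hoxd8 (chr2:74704365-74704614, plus strand) each hold 1 AGGTCA match. Hoxb8 (chr11:96281655-96281904, plus strand) holds 2 TTTATG matches and 1 GGGCGG match. Among the posterior genes, Hoxa10 (chr6:52240855-52241104, minus strand) holds 1 GGGCGG match and Hoxa13 (chr6:52260881-52261130, minus strand) holds 5.
Hoxb4: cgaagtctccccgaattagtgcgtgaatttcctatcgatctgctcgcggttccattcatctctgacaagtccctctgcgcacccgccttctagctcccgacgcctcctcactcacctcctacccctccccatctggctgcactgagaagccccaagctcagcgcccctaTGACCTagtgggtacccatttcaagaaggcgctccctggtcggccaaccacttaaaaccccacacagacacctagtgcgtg
Hoxd8: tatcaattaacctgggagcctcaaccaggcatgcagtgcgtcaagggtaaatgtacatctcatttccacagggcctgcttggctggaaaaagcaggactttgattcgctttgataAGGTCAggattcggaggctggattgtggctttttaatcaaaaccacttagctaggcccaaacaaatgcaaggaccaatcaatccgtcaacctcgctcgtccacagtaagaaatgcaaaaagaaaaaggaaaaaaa
Hoxb8: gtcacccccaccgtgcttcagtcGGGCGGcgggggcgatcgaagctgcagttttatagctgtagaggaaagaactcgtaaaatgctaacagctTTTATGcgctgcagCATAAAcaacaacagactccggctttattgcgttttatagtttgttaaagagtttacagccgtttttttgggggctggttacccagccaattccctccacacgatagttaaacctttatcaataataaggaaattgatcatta
Hoxa10: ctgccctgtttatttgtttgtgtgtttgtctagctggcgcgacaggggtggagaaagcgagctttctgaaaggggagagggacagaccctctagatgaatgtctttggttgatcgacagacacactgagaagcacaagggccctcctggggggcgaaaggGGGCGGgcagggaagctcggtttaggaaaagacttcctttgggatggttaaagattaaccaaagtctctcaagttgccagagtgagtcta
Hoxa13: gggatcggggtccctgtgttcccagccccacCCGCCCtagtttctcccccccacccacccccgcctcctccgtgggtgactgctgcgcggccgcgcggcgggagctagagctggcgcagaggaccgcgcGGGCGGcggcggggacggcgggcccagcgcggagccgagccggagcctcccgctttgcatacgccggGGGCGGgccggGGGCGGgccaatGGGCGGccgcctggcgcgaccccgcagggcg

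These 250 bases ranged from 44.4% G and C in Hoxb8 and Hoxd8 to 80% in Hoxa13, and from 6 CpG dinucleotides in Hoxd8 to 35 in Hoxa13. The RefSeq promoter table matched 11 of the 22 Hox genes, in windows of 300 bases that run from 250 before to 50 after the start. For 7 of them the RefSeq start equals the gene start in the deposited table. AGGTCA lay in 4 of the 11 Hox windows (Hoxa5, Hoxb4, Hoxc4 and Hoxd8) and in 16.3% of all 32817 promoter windows of that length. TTTATG lay in Hoxb8 alone, against 11.9% of all windows. GGGCGG lay in 6 of the 11 (Hoxa9, Hoxa10, Hoxa13, Hoxb8, Hoxc4 and Hoxd9), against 35.6% of all windows. A match is a run of letters and not a measured site, and no factor binding was measured in these cells.

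Library totals recovered from the deposited values ran from 14929232 to 19176383 counts. FPKM is the count per kilobase of gene, scaled to the library total. A count of 0 allows a true level of up to 3 counts, or 0.156 to 0.201 FPKM in a gene of 1 kb, and this limit covers counting error alone. The authors had kept only rows that differed between MF and NC by their own test, so a difference was a condition for any Hox gene to be in the table. MF replicate 2 stood apart from the other MF libraries: it was the lowest of the 3 in 78.8% of the 1274 named rows that were higher in MF. Its values are therefore given beside the Hox results below. The libraries hold mixed cells, so fewer cells of a type and less RNA per cell cannot be told apart.

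Every Hox gene in the table had a higher mean in MF than in NC. Summed over the 22 genes, FPKM was 6.09, 3.56 and 6.30 in NC replicates 1 to 3 and 44.6, 16.5 and 44.5 in MF replicates 1 to 3. MF replicates 1 and 3 lay close together, and MF replicate 2 lay between them and the NC libraries, 2.63-fold above the highest NC library. Of the 22 genes, 18 had the mean of at least 0.5 FPKM required for testing, and edgeR's quasi-likelihood test called 17 of these higher in MF (adjusted p under 0.05), where 62.1% of all 1651 genes tested were called higher. In 18 of the 22 every MF library lay above every NC library, as in 59.3% of all named rows. Since the table was selected on this contrast, nothing is read from these counts. The median log2 fold change of the 18 was 2.97, against 1.22 over all genes tested, higher and lower together. In the fit without the filter it was 3.08 for all 22, against 1.77 over the 1274 named rows higher in MF. The selection bears on these medians too, and a gene low in NC could pass the filter through its MF values. Of the tested Hox genes described singly here, all but Hoxb4 (0.844 FPKM in NC) had NC means under 0.5 FPKM and did so. The lowest was Hoxc8, with means of 0.0158 FPKM in NC and 1.26 FPKM in MF. The calls, fold changes and medians of the tested Hox genes thus depend on entry through the group where they are high.

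The calls depended on the scaling and on the libraries kept. With library totals as library sizes, 1026 genes were called higher and 584 lower, and under TMM scaling 291 were called higher (17.6%) and 589 lower, with 10 Hox genes among the higher. The size factors of DESeq2 used in edgeR gave 158 higher (9.57%) and 507 lower, with 4 Hox genes among the higher. DESeq2 itself called 9 Hox genes and 15.9% of all genes tested higher, and the 8 called by edgeR but not by DESeq2 were Hoxa3, Hoxa4, Hoxa5, Hoxb7, Hoxb8, Hoxc5, Hoxd8 and Hoxd9. TMM and the DESeq2 factors were computed from the 1651 tested genes alone, all of them selected for a difference between MF and NC. Both assume that most genes do not differ, so they may take up part of the difference between the groups. These scalings moved the median of all genes tested to 0.52 (TMM) and 0.16 (both uses of the DESeq2 factors). A scaling shifts all genes nearly alike, so the Hox median stood 1.74 to 1.76 above the median of all genes under each of them by construction. In limma it stood 0.21 above on log2(FPKM + 1) and 1.18 above on log2(FPKM + 0.1), and with a filter of 2 FPKM, which 2 Hox genes passed, 0.63 above. Without MF replicate 3 edgeR called 0 Hox genes and 0.727% of all genes tested higher, with 15 of the 18 Hox genes at an unadjusted p under 0.05. With MF replicate 2 left out, 18 Hox genes and 60.3% of all genes tested were called higher. Without NC replicate 1, 2 or 3 or MF replicate 1, edgeR called 11, 12, 14 and 12 Hox genes higher. Over all genes tested it called 422, 589, 629 and 357 higher, in that order. Adjusted over the 19069 tests the authors appear to have made, edgeR called 0 Hox genes and 0% of all genes tested, with 17 Hox genes at an unadjusted p under 0.05 and adjusted p from 0.142 to 0.662.

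**Figure D1:**
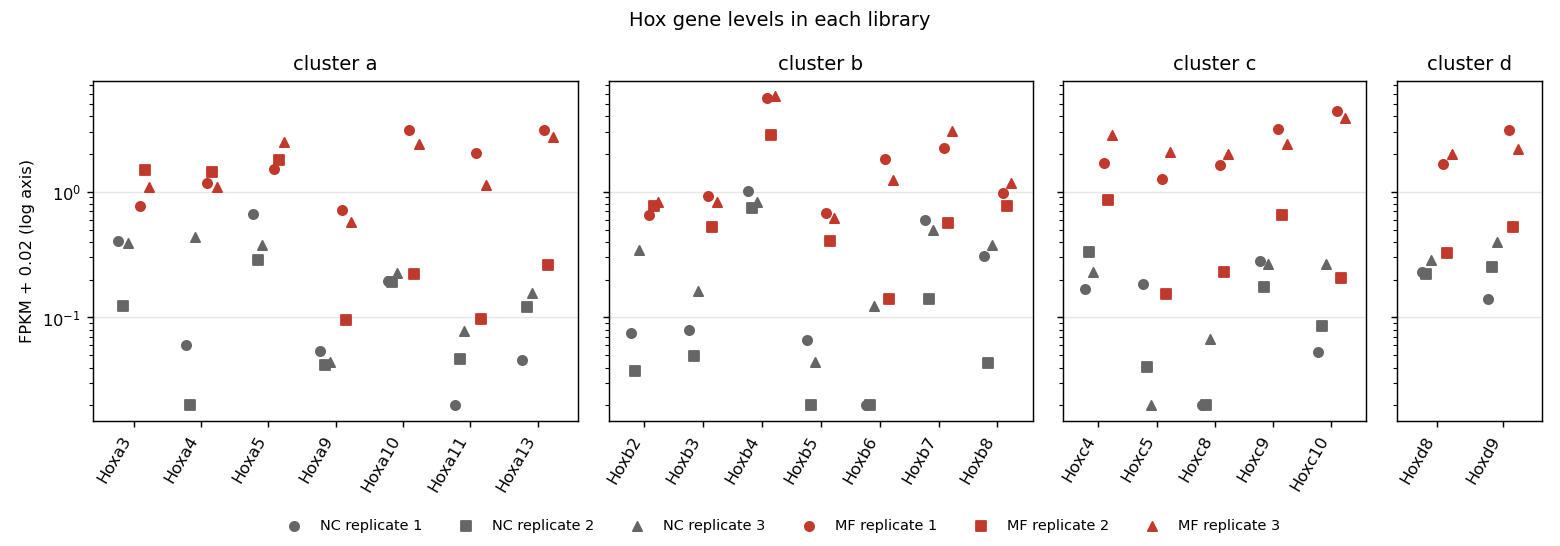
FPKM of 21 of the 22 Hox genes in the 3 NC and 3 MF libraries, with 0.02 added, on a log axis, in a panel for each cluster. MF replicates 1 and 3 lie above the NC libraries for every gene shown, while MF replicate 2 lies near the NC libraries for the genes with high numbers, such as Hoxa10 at 0.200 FPKM.

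Cluster a lies on chromosome 6 of mm10 and held the most Hox RNA in NC, and its genes described here lie between 52169062 and 52260880. Hoxa3, which patterns the pharyngeal arches and the neck, stood at 0.382, 0.103 and 0.368 FPKM in NC and at 0.754, 1.45 and 1.07 FPKM in MF. Hoxa4, a gene of the neck vertebrae, was at 0.0401, 0 and 0.420 FPKM in NC and at 1.15, 1.42 and 1.08 FPKM in MF. In both genes MF replicate 2 was the highest of the 3 MF libraries, which happened in no other Hox gene. Hoxa3 rose 3.84-fold (log2 fold change 1.94, SE 0.64, adjusted p = 0.0267) and Hoxa4 rose 7.82-fold (2.97, SE 1.08, adjusted p = 0.0311). Hoxa5, which acts at the border of neck and thorax and in the lung, stood at 0.647, 0.265 and 0.357 FPKM in NC and at 1.5, 1.78 and 2.45 FPKM in MF, and rose 4.49-fold (SE 0.64 on the log2 scale, adjusted p = 0.0236). Parts of Hoxa3 and Hoxa4 exons (25.4% and 16.0% of their bases) lie opposite an antisense gene, and the Hoxa3 gene model spans Hoxa4, Hoxa5 and Hoxa6. Whether the counting used strand is not known from the sources used, so these values may include reads of their neighbours.

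The posterior genes of the cluster, whose products shape the limb, the reproductive tract and the hind end of the trunk, gave another order of the MF libraries. Hoxa10 (52231197 to 52240854), which patterns the lumbar region and the uterus, stood at 0.176, 0.171 and 0.205 FPKM in NC and at 3.08, 0.200 and 2.37 FPKM in MF. The groups overlapped, because MF replicate 2 lay below NC replicate 3. Hoxa10 rose 10.1-fold over the group means (log2 fold change 3.34, SE 0.91, adjusted p = 0.0209). Hoxa13 (52257694 to 52260880), the last gene of the cluster, which forms the digits and the hindgut end, stood at 0.0258, 0.100 and 0.135 FPKM in NC and at 3.06, 0.241 and 2.71 FPKM in MF. It rose 22.3-fold (log2 fold change 4.48, SE 1.04, adjusted p = 0.0153), with 145, 10 and 109 counts in MF replicates 1 to 3.

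Hoxa11, which patterns the forearm and the kidney, had 0, 1 and 2 counts in NC and 88, 3 and 41 counts in MF. MF replicate 2 lay just above the NC libraries at 0.0781 FPKM. With only 3 NC counts in all, the MF to NC ratio was 39.3 with an exact 95% interval from 13.2 to 193, which covers counting error alone (adjusted p = 0.0191 in edgeR). Antisense transcription is an open point for this gene too, since 35% of its exon bases lie opposite Hoxa11os. Hoxa9, a gene of the trunk and of blood stem cells, stood at 0.0343, 0.0222 and 0.0240 FPKM in NC and at 0.692, 0.0747 and 0.551 FPKM in MF, below the mean required for testing. Its groups did not overlap, by a margin of 7 counts in MF replicate 2 against 3 in NC replicate 1.

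Cluster b lies on chromosome 11, with its deposited rows between 96281905 and 96354012. Hoxb4 (96318267 to 96321638), a gene of the neck that is also known for expanding blood stem cells, had the highest level of the Hox genes in MF. It stood at 0.996, 0.726 and 0.809 FPKM in NC and at 5.53, 2.83 and 5.70 FPKM in MF. The NC libraries were tight, and even MF replicate 2 lay well above them. Hoxb4 rose 5.54-fold (log2 fold change 2.47, SE 0.52, adjusted p = 0.0123).

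Hoxb2 and Hoxb3, which pattern hindbrain segments, and Hoxb5, a gene of the neck and forelimb level, lay below the mean required for testing. Hoxb2 was at 0.0549, 0.0178 and 0.326 FPKM in NC and at 0.628, 0.751 and 0.810 FPKM in MF. Hoxb3 was at 0.0601, 0.0292 and 0.142 FPKM in NC and at 0.908, 0.504 and 0.809 FPKM in MF. In both genes all MF libraries lay above all NC libraries, and NC replicate 3 was the highest of NC. The long antisense gene Hoxb3os covers 27.3% of the exon bases of Hoxb2 and 52.9% of those of Hoxb3. Hoxb5 had 2, 0 and 1 counts in NC and 35, 18 and 27 counts in MF, a ratio of 23.8 with an exact 95% interval from 7.87 to 118.

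The trunk genes of cluster b did not share 1 pattern. Hoxb6 had 0, 0 and 3 counts in NC and 68, 4 and 39 counts in MF, a ratio of 33.1 (exact 95% interval 11 to 163), and was called higher (adjusted p = 0.0223 in edgeR). Hoxb7 stood at 0.579, 0.121 and 0.477 FPKM in NC and at 2.20, 0.540 and 3.02 FPKM in MF. In Hoxb6 MF replicate 2 lay just above the highest NC library and in Hoxb7 below it. Hoxb8 (96281905 to 96285315), the last deposited gene of the cluster, stood at 0.291, 0.0236 and 0.356 FPKM in NC and at 0.95, 0.745 and 1.14 FPKM in MF. Its MF libraries lay close together, all above NC, unlike those of Hoxb6 and Hoxb7 next to it. Hoxb7 rose 4.86-fold (SE 0.85 on the log2 scale, adjusted p = 0.0319) and Hoxb8 rose 4.21-fold (SE 0.84, adjusted p = 0.0383).

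Cluster c lies on chromosome 15, with its deposited rows between 102966796 and 103036852, and had little RNA in NC. Hoxc8 (102990607 to 102994111), which patterns the thorax and motor neurons of the forelimb level, had 0, 0 and 2 counts in NC and 87, 10 and 91 counts in MF. Hoxc9, which marks the thoracic spinal cord, stood at 0.263, 0.153 and 0.248 FPKM in NC and at 3.13, 0.637 and 2.38 FPKM in MF. Both genes were highest in MF replicates 1 and 3, and MF replicate 2 still lay above every NC library. Hoxc9 rose 9.16-fold (log2 fold change 3.19, SE 0.75, adjusted p = 0.0153). The ratio for Hoxc8 rests on 2 NC counts and is uncertain, at 84.0 with an exact 95% interval from 22.9 to 699 (adjusted p = 0.0123 in edgeR).

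Hoxc10 (102966796 to 102971893), a lumbar and hindlimb gene, stood at 0.0335, 0.0650 and 0.246 FPKM in NC and at 4.34, 0.187 and 3.83 FPKM in MF. Hoxc5, a gene of the neck level, stood at 0.165, 0.0201 and 0 FPKM in NC and at 1.23, 0.135 and 2.05 FPKM in MF. The groups of both genes overlapped, since MF replicate 2 lay below the highest NC library. Hoxc10 rose in edgeR (log2 fold change 4.57, SE 1.17, adjusted p = 0.0190), as did Hoxc5 (4.14, SE 1.26, adjusted p = 0.0242). These 2 gene models share exon bases on the same strand, 8.70% of those of Hoxc10 and 5.37% of those of Hoxc5, and the Hoxc5 model spans Hoxc6, Hoxc8 and Hoxc9. Reads there may have been split between them, so their values are uncertain. Hoxc4, a gene of the neck level, stood at 0.149, 0.314 and 0.209 FPKM in NC and at 1.67, 0.834 and 2.82 FPKM in MF, without overlap, and rose 7.82-fold (SE 0.70, adjusted p = 0.0153).

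Only Hoxd8 and Hoxd9 of cluster d are in the table, on chromosome 2 between 74697727 and 74707933. Hoxd8, a trunk gene, stood at 0.209, 0.204 and 0.269 FPKM in NC and at 1.65, 0.304 and 1.97 FPKM in MF. Hoxd9, a gene of the trunk and limb, stood at 0.120, 0.232 and 0.376 FPKM in NC and at 3.05, 0.502 and 2.19 FPKM in MF. In both, MF replicate 2 lay just above the highest NC library. Hoxd8 rose 5.71-fold (SE 0.78, adjusted p = 0.0247) and Hoxd9 rose 7.80-fold (SE 0.82, adjusted p = 0.0216).

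The log2 fold changes were then set out by paralog number. Over all members, the median log2 fold change was 2.47 for paralogs 1 to 4, 3.33 for paralogs 5 to 8 and 3.97 for paralogs 9 to 13. Over the tested members it was 2.47, 2.51 and 3.91. By cluster, the medians over the tested members were 2.97 in a, 2.37 in b, 4.14 in c and 2.74 in d. The ranges of the bands overlapped, with values up to 3.24 in Hoxb3 for paralogs 1 to 4, from 2.07 in Hoxb8 to 6.14 in Hoxc8 for paralogs 5 to 8 and from 2.96 in Hoxd9 to 5.08 in Hoxa11 for paralogs 9 to 13. Without MF replicate 2 the medians over the tested members were 2.73, 2.98 and 4.44. The order of the first 2 bands depended on the setting. Paralogs 1 to 4 and 5 to 8 gave 1.36 and 1.33 in DESeq2, and 2.29 and 1.98 on log2(FPKM + 0.1). Without MF replicate 3 they gave 2.305 and 2.10. Under TMM and without any 1 of the NC libraries, paralogs 5 to 8 stayed above paralogs 1 to 4. Paralogs 9 to 13 had the highest median wherever it could be computed. The bands were not tested against each other, since genes of a cluster are not replicates. The medians describe only the 7 of 12, 8 of 11 and 7 of 16 genes that the authors' selection on this difference left in each band. Whether that selection shaped the order of the bands was not tested.

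**Figure D2:**
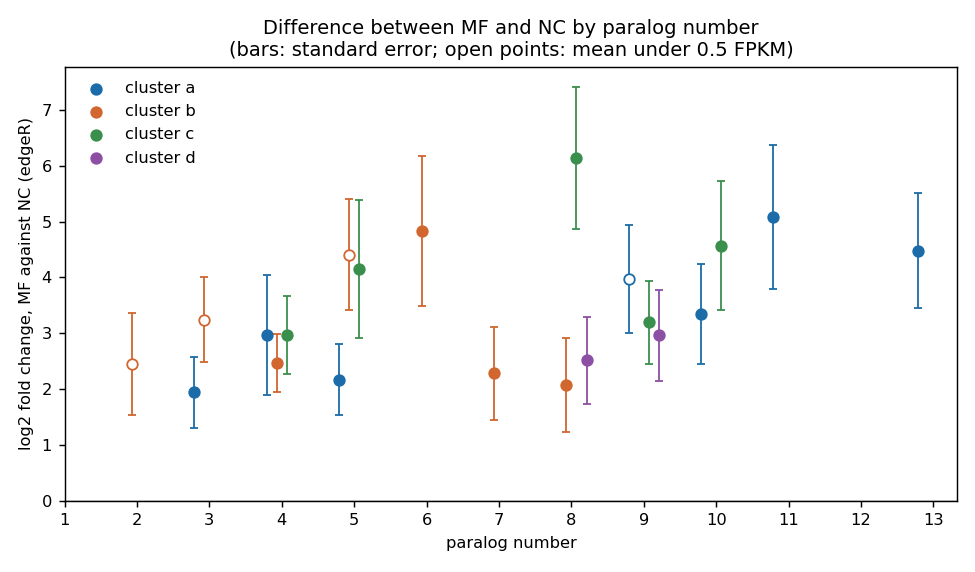
Log2 fold change of MF over NC for 21 of the 22 Hox genes by paralog number, coloured by cluster, with 1 SE as error bars and open symbols for the 4 genes below the FPKM needed for testing. All points lie above 0, from 1.94 in Hoxa3 to 6.14 in Hoxc8.

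The make-up of the Hox RNA differed between libraries, and MF replicate 2 resembled NC. Paralogs 1 to 4 gave 57.5%, 60.6% and 53.6% of the summed Hox FPKM in NC replicates 1 to 3, and 30.7%, 62.9% and 33.7% in MF replicates 1 to 3. Paralogs 9 to 13 gave 10.7%, 21.7% and 20.5% in NC and 43.4%, 11.6% and 33.9% in MF. The posterior genes had the largest share in MF replicate 1 and the anterior genes in NC and MF replicate 2. In MF replicate 3 the anterior and posterior shares were nearly equal, and in counts not divided by gene length paralogs 1 to 4 led there with 37.2% against 33.2% for paralogs 9 to 13. Paralogs 5 to 8 gave between 17.8% and 32.4% in every library, with the groups overlapping.

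In summed FPKM, paralogs 1 to 4 reached 3.50, 2.16 and 3.37 in NC and 13.7, 10.4 and 15.0 in MF. The 3 MF libraries were close here, and MF replicate 2 was 2.98-fold above the highest NC library. Paralogs 9 to 13 reached 0.652, 0.771 and 1.29 in NC and 19.4, 1.92 and 15.1 in MF. There MF replicate 2 was 1.48-fold above the highest NC library and far below the other MF libraries. By cluster, c gave 10.04%, 15.5% and 11.9% of the Hox sum in NC and 26.8%, 12.1% and 29.3% in MF, while a gave 51.3%, 46.5% and 42.4% in NC and 34.3%, 47.5% and 31.5% in MF. For both clusters the value of MF replicate 2 lay within the NC range.

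**Figure D3:**
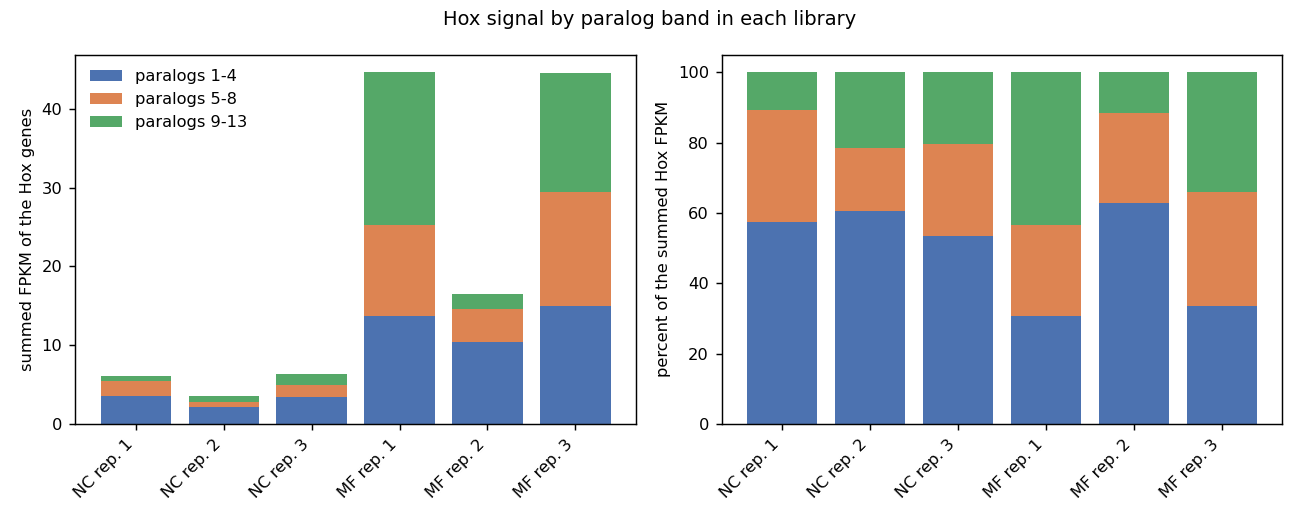
Stacked bars of Hox paralogs 1 to 4, 5 to 8 and 9 to 13 in each library, as summed FPKM on the left and as percent of the library's summed Hox FPKM on the right, both from 0. Paralogs 9 to 13 reach 19.4 and 15.1 in MF replicates 1 and 3 and 1.92 in MF replicate 2, while paralogs 1 to 4 reach 10.4 to 15.0 in all 3 MF libraries.

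To describe this gene by gene without the NC libraries, the FPKM of each MF library was expressed as a percentage of the sum of the 3. MF replicate 2 held between 15.7% (Hoxc4) and 44.3% (Hoxa3) of that sum for the 7 genes of paralogs 1 to 4, with a median of 31.2%, where an equal split gives 33.3%. It held between 3.85% (Hoxb6) and 31.0% (Hoxa5) for paralogs 5 to 8, with a median of 8.55%. For the 7 genes of paralogs 9 to 13 it held between 2.24% (Hoxc10) and 10.4% (Hoxc9), with a median of 4.01%. The ranges of the anterior and the posterior band did not overlap, and the middle band spanned both. Over the 1274 named rows higher in MF the median share of MF replicate 2 was 23.0%, with quartiles at 17.4% and 28.8% and the 10th percentile at 10.4%.

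Within the middle band the share followed no single order by number. Hoxa5 (31.0%), Hoxb5 (23.5%) and Hoxb8 (26.3%) kept a share like that of the anterior genes. Hoxb6 (3.85%), Hoxb7 (9.37%), Hoxc5 (3.95%), Hoxc8 (5.55%) and Hoxd8 (7.73%) had a low share like that of the posterior genes. Members of the same paralog group could differ: Hoxc5 stood far below Hoxa5 and Hoxb5, and Hoxb8 far above Hoxc8 and Hoxd8. The share of Hoxc5 is uncertain, since its gene model shares exon bases with Hoxc10 and it had 7 counts in MF replicate 2. The low shares rest on few counts in MF replicate 2, from 3 in Hoxa11 to 26 in Hoxc9 among paralogs 9 to 13, so their order among themselves is not resolved. All of this describes 1 library, for which there is no replicate.

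MF replicates 1 and 3 also differed by position. MF replicate 1 lay above MF replicate 3 in 7 of 7 genes of paralogs 9 to 13, in 2 of 8 of paralogs 5 to 8 and in 3 of 7 of paralogs 1 to 4, and in 53.5% of all named rows higher in MF. Hoxa11 had the widest gap of the posterior genes, with 63.0% of its MF sum in MF replicate 1 and 34.6% in MF replicate 3. Hoxc5 had the widest gap in the other direction, with 36.1% in MF replicate 1 and 59.97% in MF replicate 3. Within NC, replicate 2 was the lowest in 14 of the 22 genes, 6 of 7 in paralogs 1 to 4, 5 of 8 in paralogs 5 to 8 and 3 of 7 in paralogs 9 to 13. The same count was not made over all named rows, so nothing about the Hox genes is read from it.

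**Figure D4:**
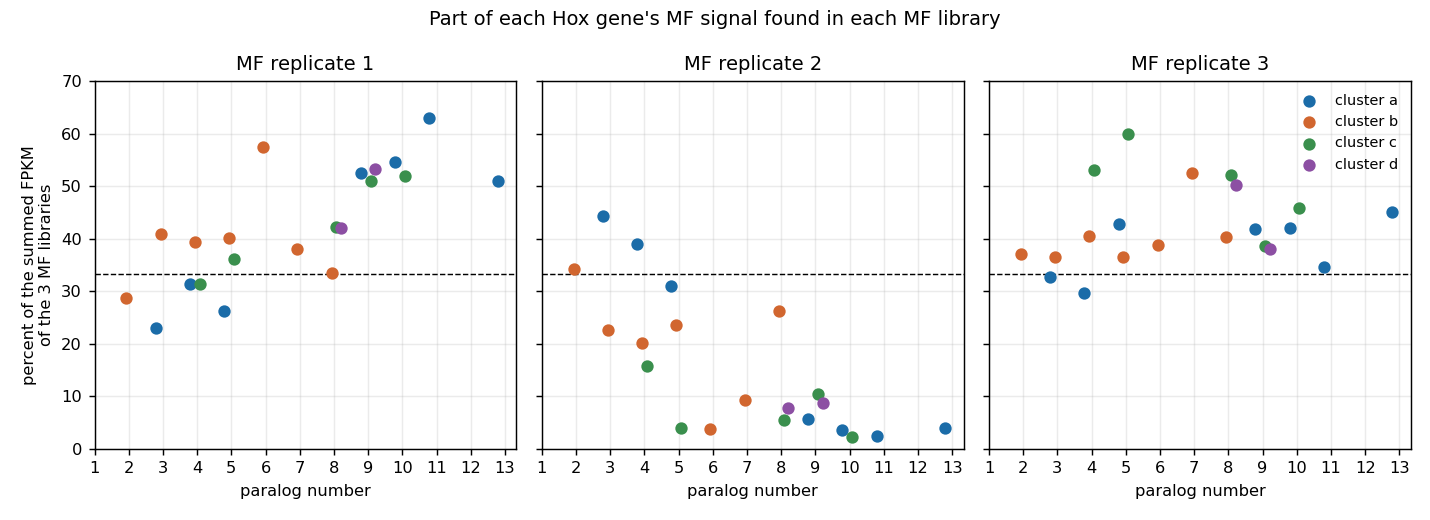
Share of each gene's MF sum held by each of the 3 MF libraries, in percent, for 21 of the 22 Hox genes in order of paralog number, with a dashed line at an equal split (33.3%). The points of MF replicate 2 lie between 15.7% and 44.3% for paralogs 1 to 4 and at or below 10.4% for paralogs 9 to 13.

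Beside the clusters, the table holds 2 rows within 100 kb of a Hox gene and no other row inside a cluster. Both lie beyond Hoxa13 on chromosome 6. Evx1 (52313498 to 52318378), a homeobox gene of the tailbud that neighbours the posterior end of the cluster, lies 52618 bases from it and stood at 0.200, 0.129 and 0.675 FPKM in NC and at 3.15, 0.559 and 2.46 FPKM in MF. Evx1 rose 6.13-fold (log2 fold change 2.61, SE 0.85, adjusted p = 0.0262 in edgeR), with overlapping groups and 9.06% of its MF sum in MF replicate 2. Evx1os (52308389 to 52314832), a long non-coding RNA on the opposite strand that overlaps Evx1, stood at 0.0635, 0.0411 and 0.0444 FPKM in NC and at 1.07, 0.178 and 0.774 FPKM in MF. It had 8.78% of its MF sum in MF replicate 2, and reads of the overlapping pair cannot be told apart without strand. The split of both genes over the MF libraries lay within the range seen in Hox paralogs 9 to 13.

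Genes whose products act with or on Hox genes were described from fixed lists. Of 9 TALE cofactors, homeodomain proteins that bind DNA together with Hox proteins, 3 are in the table and 3 of 3 rose, beside 62.1% of all genes tested called higher. Meis2 rose 3.43-fold and Meis1 3.59-fold (adjusted p = 0.0153 and 0.0263 in edgeR). MF replicate 2 held 22.3% and 24.2% of their MF sums. Of 3 Cdx genes, activators of trunk Hox genes, Cdx2 alone is in the table, at 0.480, 0.659 and 2.04 FPKM in NC and at 3.67, 2.32 and 4.37 FPKM in MF. Cdx2 rose 3.25-fold without overlap (SE 0.66 on the log2 scale, adjusted p = 0.0338).

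Of 20 genes of retinoic acid synthesis, breakdown and binding, 4 are in the table and all 4 rose without overlap, beside 62.1% of all genes tested called higher and 59.3% of all named rows higher without overlap. Aldh1a2, the main enzyme that makes retinoic acid in the embryo, rose 4.64-fold, Stra6, the retinol transporter, 3.21-fold and the receptor gene Rarb 2.85-fold (adjusted p from 0.0227 to 0.0354). Aldh1a2 stood at 0.564, 0.329 and 0.266 FPKM in NC and at 2.12, 1.05 and 2.25 FPKM in MF. MF replicate 2 held between 19.4% (Aldh1a2) and 29.99% (Stra6) of the MF sums of these 3 genes. That range lies within those of Hox paralogs 1 to 4 and 5 to 8. It also holds the median share of 23.0% over the 1274 named rows higher in MF.

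Of 22 Polycomb and Trithorax genes, 3 are in the table, with 1 called higher and 2 lower. Over all 1651 genes tested, 1026 were called higher and 584 lower. The Polycomb genes Phc1 and Jarid2 fell 2.21-fold and 2.06-fold (adjusted p = 0.0307 and 0.0468 in edgeR). MF replicate 2 held 47.5% and 39.0% of their MF sums. Of 13 genes of tailbud and trunk extension, Wnt5a rose 4.52-fold and Gdf11, a signal that turns on posterior Hox genes, rose 2.31-fold, while Sall4 fell 2.57-fold (adjusted p from 0.0242 to 0.0304). MF replicate 2 held 16.2%, 30.7% and 47.6% of their MF sums. These lists were drawn up with earlier results of the data known.

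Markers of cell types moved with the Hox genes, and their part in the Hox results was not tested. Of 16 markers of lateral plate mesoderm and limb buds 13 are in the table and 13 of 13 rose, 9 of them without overlap, where 62.1% of all genes tested were called higher and 59.3% of all named rows were higher without overlap. They had a summed FPKM of 34.9 to 79.6 in NC and of 380, 112 and 379 in MF. MF replicate 2 held 2.60% of the MF sum of Hand2, 2.80% of that of Tbx5, 2.44% of that of Pitx1 and 1.87% of that of Tbx4, genes of the limb buds and the heart, as low as for Hox paralogs 9 to 13. Over the 13 markers its share ran from 1.87% to 27.5% with a median of 11.3%. None of these markers was at 0 in any library.

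The paraxial and intermediate mesoderm lists had less uneven shares, while lists with few members in the table varied. The 5 of 16 paraxial mesoderm and somite markers in the table summed to 0.635 to 2.27 FPKM in NC and to 14.6, 8.86 and 13.6 FPKM in MF, with 4 of 4 tested members called higher (62.1% of all genes tested). MF replicate 2 held 18.5% to 31.4% of their MF sums, within the range of Hox paralogs 1 to 4. The median share over the 1274 named rows higher in MF, 23.0%, lies in this range too. The 4 of 11 intermediate mesoderm and kidney markers were all called higher (62.1% of all genes tested), at 3.31 to 6.37 FPKM in NC and 18.5, 11.3 and 18.0 FPKM in MF, with shares of MF replicate 2 from 19.3% to 32.2%. Of 15 spinal cord and neural progenitor markers only Irx3 is in the table (22.4% in MF replicate 2), and of 12 forebrain and midbrain markers only Lhx2 (57.3%). Of 10 neural crest markers Snai2 and Ednrb are in the table, with 10.5% and 20.5%. The endoderm markers in the table were Gata6 and Foxa1, of 11 listed, with 4.25% and 48.3%. A low share was thus not limited to limb bud markers and posterior Hox genes.

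Markers of pluripotent cells ran the other way. The 4 of 15 in the table (Utf1, Klf2, Dppa3 and Prdm14) all fell, beside 584 of all 1651 genes tested called lower. They summed to 324, 750 and 274 FPKM in NC and 68.8, 185 and 65.5 FPKM in MF. Within each group, replicate 2 had the highest sum of these markers and the lowest sum of Hox FPKM. The 4 of 12 blood and endothelium markers summed to 12.4, 42.8 and 18.6 FPKM in NC and 39.7, 21.4 and 30.3 FPKM in MF. Of them, Cdh5, Kdr and Cd34 were called higher and Pecam1 lower, beside 1026 and 584 of all 1651 genes tested. The part of these cell types in the Hox levels was not tested.

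**Figure D5:**
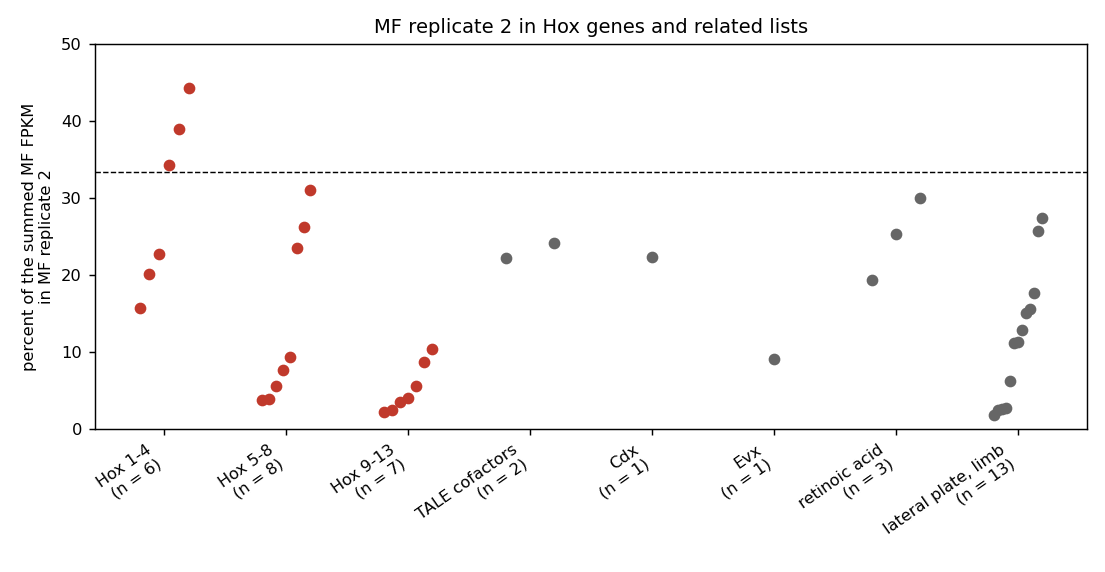
Share of the MF sum held by MF replicate 2, in percent, for the Hox genes by paralog band (red) and for members of 5 other lists (grey), 1 point per gene described here, with a dashed line at an equal split (33.3%). The posterior Hox genes lie between 2.24% and 10.4%, the lateral plate and limb bud markers between 1.87% and 27.5%, and the retinoic acid genes between 19.4% and 29.99%.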

How the data were processed

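Poly-A RNA was sequenced, according to the labels' protocols. The submitters' processing notes name HISAT2 2.0.5, featureCounts and mm10. Settings and strand use in the counting are not stated in the sources used. Per the file headers, every row gives a raw count, an FPKM and a normalized signal for each library. The authors' own comparison is deposited beside them as a log2 fold change and its p-value, raw and adjusted. The largest adjusted p in the authors' deposited table is 0.0499 and the smallest absolute log2 fold change is 1.00. Its rows had thus been selected on the MF to NC difference. Library totals were recovered from the ratio of deposited counts to deposited FPKM. Rows with no gene name (48, with 0.0134% to 0.0390% of the totals) were left out.

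Genes averaging 0.5 FPKM or more and bearing a name (1651) entered edgeR 4.0.16 (R 4.3.3). Its quasi-likelihood test was two-sided and took the recovered totals as library sizes and no term but group. Benjamini-Hochberg adjustment ran over these genes at 0.05, and since they were preselected it does not control errors over the genome. Fold changes of genes below the filter come from the same fit without one. Alternatives were TMM, DESeq2 1.42.0, limma 3.58.1 on log2(FPKM + 1) and log2(FPKM + 0.1), other filters, the leaving out of single libraries, and replicate numbers as a block. The edgeR fit was tested on simulated data. With the exceptions given below, every Hox row and the rows within 100 kb of a cluster are named. So are up to 5 members of each list of regulators and cofactors, those with the highest mean FPKM. The cell type markers named were chosen after their values were seen. A Hox gene and some members of the other lists enter the counts, sums and medians but are not reported singly here. The members and lists were chosen with earlier results of these data known.

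For the replicate block, deviations from group means were compared between NC and MF libraries. Those with the same number correlated, at 0.40 for number 1, 0.54 for number 2 and 0.35 for number 3, and were taken as pairs. No label gives this pairing, and NC replicate 3 correlated as well with MF replicate 1 (0.54). No libraries agreed within sampling noise. The series calls the samples biological triplicates, and the p-values measure the spread between them. Coordinates and lengths of all 22 Hox genes equal those of GENCODE release M21, and promoter sequences are from RefSeq on GRCm38.p6.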

Additional observations from a re-analysis of the deposited data

How the results depend on the processing

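All tested Hox genes were higher in MF under every setting run. Of 17 called higher, 10 were called under TMM, 4 with DESeq2's size factors in edgeR, 9 by DESeq2, 1 of 2 tested under a filter of 2 FPKM, 0 over the recovered number of tests, and 0 (without MF replicate 3) to 18 (without MF replicate 2) when 1 library was left out. Calls over all genes were, in that order of settings, 291, 158, 263, 611, 0 and 12 to 996 higher, against 1026. For lower calls they were 369 at 2 FPKM, 0 over the recovered tests and 0 to 582 with 1 library left out, against 584. The replicate block gave 18 Hox calls, 1030 higher and 590 lower over all genes, with 1 Hox gene whose call changed. The median log2 fold change of cluster a (2.97) was 2.36 under TMM, 2.10 with size factors, 2.11 in DESeq2, 0.96 on log2(FPKM + 1), 2.23 on log2(FPKM + 0.1) and 2.27 without both replicate 2 libraries. That of cluster b (2.37) was 1.27 with size factors, 1.28 in DESeq2 and 0.93 on log2(FPKM + 1), where clusters c and d gave 1.12 and 0.97. Paralogs 1 to 4 (2.47) gave 1.74 under TMM, 1.36 with size factors and in DESeq2, 1.79 at 2 FPKM and 0.96 on log2(FPKM + 1), where paralogs 5 to 8 and 9 to 13 gave 0.90 and 1.17. A pseudocount of 1 exceeds most NC values, so these medians understate the change of low genes, and at 2 FPKM clusters c and d and paralogs 5 to 13 had no tested member and clusters a and b too few for a median. The cause of the other shifts was not tested. Depth limits the fold changes of genes with few NC counts over the 3 libraries, such as Hoxc8 with 2 and Hoxb5, Hoxb6 and Hoxa11 with 3 each.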
